A study of Mus musculus with 8 samples.

Results

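The genes described here copy DNA in S phase: they license origins, unwind and copy the double helix, make deoxynucleotides and carry chromatin marks over to the new strands. The list named 43 genes in 8 roles, matched by symbol to the array's probe-set annotation, and 41 of them were measured among 22180 genes. Ccne2, a cyclin E, and Rfc4, a clamp loader subunit, were listed only in probe sets that carry several symbols and were not measured. Where a gene had several probe sets with its symbol alone, the brightest over the 8 arrays was used. Values are log2 of the deposited array intensity, and every pair of values for a group below gives number 1 and then number 2 of its duplicates.

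The arrays held RNA of cultured mouse melanocytes, the pigment cells of skin, in 4 groups of 2 arrays. KO UVA cultures were autophagy deficient (Atg7 f/f Tyr::Cre) and received 20 J/cm2 of UVA-1, KO sham cultures were of the same genotype with a sham treatment, WT UVA cultures were autophagy competent (Atg7 f/f) with the same UVA-1 dose, and WT sham cultures were Atg7 f/f with the sham treatment. All groups therefore carried floxed Atg7, a gene needed to form autophagosomes, and the Cre of the KO groups is driven by the tyrosinase promoter, which is known to be active in pigment cells. Melanocytes came from pups aged 1 to 5 days, all labelled female, were cultured in MGM-2 medium for 22 days, and gave RNA 6 h after treatment. The submitters described the study as made in biological duplicates, numbered 1 and 2 in every group, and what a replicate number means (an animal, a pool of pups or a day) is not given in the labels. Arrays of one genotype and one number are called a culture here, although no label states that they shared one. With 2 arrays per group the p-values below rest on few residual degrees of freedom.

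Replication of DNA starts when the origin recognition complex, Cdc6 and Cdt1 load the ring of Mcm2 to Mcm7 on origins in G1 phase, which is called licensing. Cdc45 and the GINS complex turn the ring into an active helicase in S phase, polymerase alpha with primase lays primers, and polymerases delta and epsilon extend them behind the sliding clamp Pcna. Many of these genes are known targets of E2F transcription factors, so their transcripts are abundant in cycling cells and scarce in resting ones. In primary cultures they are read as markers of proliferation.

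Because E2F sites are the best known shared feature of such promoters, windows of 250 bases before to 50 bases after a listed start were searched in RefSeq sequence (GRCm38.p6). It held a window for 36 of the 43 genes, and several for some. Not every window lies at the outer end of its gene. That of Cdc6 begins at 98907901, inside a gene that begins at 98907709. The windows of Orc1 and Hells, and those with an E2F word of Dnmt1, Uhrf1 and Lig1, also lie inside the gene. The words searched on both strands were TTTCCCGC, TTTCGCGC, TTTGCCGC and TTTGGCGC, which can overlap one another, and CCAAT, the NF-Y word, was searched likewise. An E2F word stood in a window of 18 of the 36 genes (50%), against 704 of all 27025 genes with a window (2.6%). The 18 were Orc1, Cdc6 and Cdt1 of licensing, Mcm3, Mcm5, Mcm6 and Mcm7 of the helicase ring, Gins3, Pola1, Pold1, Pole2, Rfc3, Lig1, E2f2, and all of Ezh2, Uhrf1, Dnmt1 and Hells. None of the 5 nucleotide synthesis genes held one of these words in its window. CCAAT stood in a window of 21 of the 36 genes (58.3%), against 11096 of all genes (41.1%). Windows of 4 genes are shown, for the licensing, helicase, nucleotide and G1/S gene with the smallest genotype p-value that had a window, with E2F words in capitals on either strand. Mcm6 holds 3 words, of which the first 2 overlap, Cdc6 and the first listed window of E2f2 hold 1 each, and Tk1 holds none.
Cdc6, chr11:98907901-98908200, plus strand: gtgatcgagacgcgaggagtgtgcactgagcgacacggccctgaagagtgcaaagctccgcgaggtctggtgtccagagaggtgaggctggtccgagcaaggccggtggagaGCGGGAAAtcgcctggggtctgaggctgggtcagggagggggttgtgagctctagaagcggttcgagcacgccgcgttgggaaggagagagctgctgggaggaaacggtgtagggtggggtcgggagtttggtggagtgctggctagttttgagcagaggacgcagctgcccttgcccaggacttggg
Mcm6, chr1:128359656-128359955, minus strand: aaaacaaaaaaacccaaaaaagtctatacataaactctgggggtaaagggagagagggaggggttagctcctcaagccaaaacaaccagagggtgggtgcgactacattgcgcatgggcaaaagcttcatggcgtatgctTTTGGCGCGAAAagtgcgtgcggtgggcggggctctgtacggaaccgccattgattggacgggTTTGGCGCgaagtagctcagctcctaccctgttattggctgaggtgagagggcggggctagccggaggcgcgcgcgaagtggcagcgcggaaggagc
E2f2, chr4:136172024-136172323, plus strand: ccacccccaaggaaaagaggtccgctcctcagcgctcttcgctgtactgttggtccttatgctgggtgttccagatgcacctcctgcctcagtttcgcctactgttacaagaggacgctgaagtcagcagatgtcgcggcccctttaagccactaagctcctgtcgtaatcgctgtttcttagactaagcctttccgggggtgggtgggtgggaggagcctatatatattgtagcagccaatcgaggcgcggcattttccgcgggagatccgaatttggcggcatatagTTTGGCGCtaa
Tk1, chr11:117825965-117826264, minus strand: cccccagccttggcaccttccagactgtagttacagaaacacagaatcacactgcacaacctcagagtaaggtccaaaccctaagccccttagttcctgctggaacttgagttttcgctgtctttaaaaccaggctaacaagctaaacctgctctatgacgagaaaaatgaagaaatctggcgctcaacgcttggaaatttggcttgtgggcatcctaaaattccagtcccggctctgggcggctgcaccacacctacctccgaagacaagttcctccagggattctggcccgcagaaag

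Over all genes, the UVA and sham arrays of a culture correlated at 0.996 to 0.997, and arrays of one number but different genotype at 0.989 to 0.997. Duplicates of one group correlated at only 0.962 to 0.978, and the first principal component carried 77.7% of the variance. The main fit in limma paired arrays by number, as the member rule asks. Atg7 itself had 9.65 and 9.23 in KO UVA, 9.70 and 9.22 in KO sham, 9.97 and 9.70 in WT UVA and 9.95 and 9.75 in WT sham arrays. Its KO minus WT difference was -0.39 (adjusted p = 0.297), and whether its probes lie in the deleted exon was not tested. The 12 melanocyte markers summed to 91206 to 92403 in KO arrays of number 2, 105784 to 107963 in WT arrays of number 2, 59669 to 62541 in KO arrays of number 1 and 58535 to 61692 in WT arrays of number 1. The 12 fibroblast markers summed to 27372 to 29643, 13080 to 14489, 61341 to 65052 and 62223 to 64407 intensity units in the same order of arrays, so fibroblast transcripts were present in all 8 arrays.

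The first question was whether autophagy-deficient melanocytes express replication genes at another level than competent ones. Averaged over treatments, 40 of the 41 genes had a KO minus WT difference below 0, against 54.1% of all genes. The median was -0.23, a KO level of 0.850 of the WT level, against a median of -0.01 over all genes. None of the 41 passed the adjusted threshold of 0.05: 0 were called, against 7 of 22180 genes (0.0316%), and the smallest adjusted p was 0.410, of Pole. At an unadjusted p under 0.05 there were 13 genes, all lower in KO, against 876 of all genes lower in KO (3.95%). Without the pairing by number none of the 41 passed this limit, against 517 of all genes in either direction. The unpaired fit leaves the difference between duplicates in its residual spread. The p-values and SE here and below count the UVA and sham arrays of a culture as separate arrays. With 1 value per culture and the pairing by number, the smallest adjusted p of the 41 in limma was 0.996. In no gene did all 4 KO arrays lie below all 4 WT arrays, a pattern shown by 209 of all genes (0.942%). In 37 of the 41, however, every array of number 2 lay above every array of number 1 (all genes 16.6%). The pattern could not occur in those genes at all, so its absence says nothing about their genotype difference. Only E2f1, with a difference of 0.10, stood above 0. The median moved to -0.14 without the KO UVA, the KO sham or the WT sham array of number 2, and stayed between -0.34 and -0.16 without any other array.

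The duplicates differed in this comparison. In number 2 the median KO minus WT difference was -0.47 and 40 of 41 genes lay below 0 (all genes 54.5%), with values from -0.95 (Pole2) to 0.01 (E2f1). In number 1 the median was -0.01 and 24 of 41 lay below 0 (all genes 49.1%), with values from -0.25 (Tk1) to 0.31 (Hells). The 24 genes below 0 in number 1 were also below 0 in number 2, 16 were above 0 in number 1 and below 0 in number 2, and E2f1 was above 0 in both. The genotype difference of the list was thus carried mainly by 1 of the 2 pairs of cultures. In the same arrays the fibroblast markers had a median KO minus WT difference of 1.12 in number 2 and -0.05 in number 1, and the melanocyte markers -0.34 and 0.04, and their part in the replication values was not tested. In such bulk RNA, fewer cells that express these genes and less of their RNA per cell cannot be told apart. Below, the order of the 2 KO and 2 WT arrays within a number is given as a description. How many of all genes show such an order was not counted, and most genes with array values were picked by their genotype p-value.

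**Figure D1:**
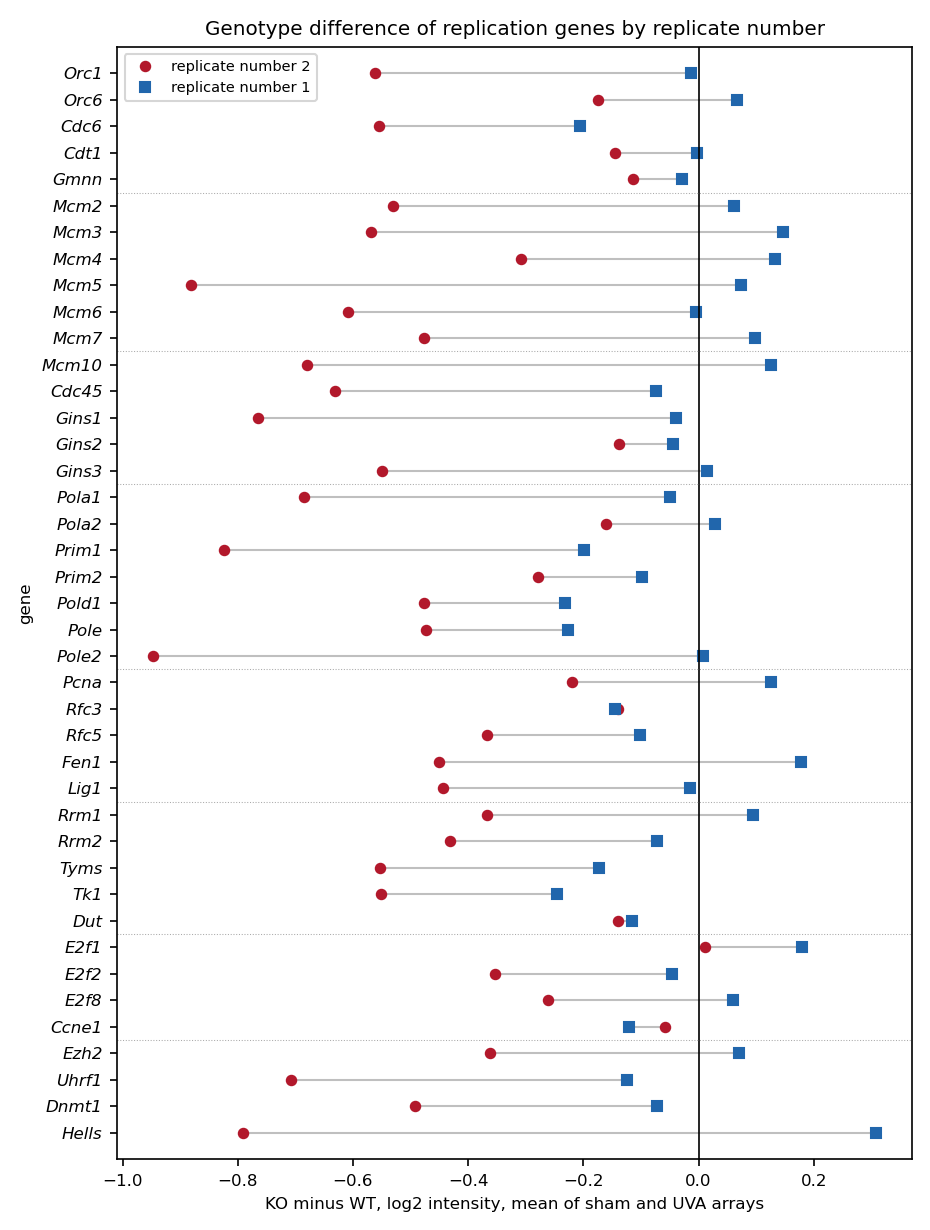
KO minus WT difference in log2 intensity (x axis) of each measured replication gene (y axis, grouped by role with dotted lines), averaged over UVA and sham arrays, in replicate number 2 (circles) and number 1 (squares). The circles centre on a median of -0.47 and the squares on -0.01.

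Among the 5 licensing genes the median KO minus WT difference was -0.07, with -0.17 in number 2 and -0.01 in number 1, and no unadjusted p was under 0.05. Cdc6, the ATPase that brings the helicase ring to the origin complex, had 6.07 and 7.54 in KO UVA, 6.30 and 7.85 in KO sham, 6.46 and 7.83 in WT UVA and 6.32 and 8.67 in WT sham arrays. With treatments matched, KO was lower than WT in both numbers, although the KO sham and WT UVA arrays of number 2 nearly coincided, and the difference was -0.38 ± 0.16 (SE, adjusted p = 0.564). Orc1, the largest subunit of the origin recognition complex, had 6.39 and 6.59 in KO UVA, 6.17 and 6.78 in KO sham, 6.32 and 7.16 in WT UVA and 6.27 and 7.33 in WT sham arrays. The KO arrays of number 2 were the lower ones and those of number 1 overlapped the WT arrays, with a difference of -0.29 ± 0.14 (SE, adjusted p = 0.593). Orc6, another subunit of that complex, Cdt1, the second loader, and Gmnn (geminin), which binds and inhibits Cdt1, differed by -0.05, -0.07 and -0.07, the smallest differences of the role.

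All 6 genes of the MCM2-7 ring had a KO minus WT difference below 0, with a median of -0.22, made of -0.55 in number 2 and 0.09 in number 1, where 5 of the 6 stood above 0. Mcm6 had 8.23 and 8.97 in KO UVA, 8.19 and 9.11 in KO sham, 8.25 and 9.52 in WT UVA and 8.18 and 9.79 in WT sham arrays. In number 2 both KO arrays lay below both WT arrays, whereas the 4 arrays of number 1 lay between 8.18 and 8.25, and the difference was -0.31 ± 0.14 (SE, adjusted p = 0.577). Mcm5 had 8.03 and 9.72 in KO UVA, 7.95 and 9.74 in KO sham, 7.77 and 10.59 in WT UVA and 8.07 and 10.64 in WT sham arrays. Number 2 gave the lowest KO minus WT value of the ring, -0.88, and number 1 gave 0.07, and the average was -0.40 ± 0.19 (SE, adjusted p = 0.593). Mcm2, Mcm3, Mcm4 and Mcm7 differed by -0.23, -0.21, -0.09 and -0.19.

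The 5 genes that activate the helicase had a median difference of -0.28, with -0.63 in number 2 and -0.04 in number 1. Of the 5, 2 had an unadjusted p under 0.05, both lower in KO, against 3.95% of all genes lower in KO. Cdc45, which joins the ring to form the active helicase, had 6.55 and 7.69 in KO UVA, 6.74 and 7.46 in KO sham, 6.60 and 8.21 in WT UVA and 6.85 and 8.19 in WT sham arrays. Gins1, a GINS subunit, had 5.67 and 6.60 in KO UVA, 5.83 and 6.46 in KO sham, 5.88 and 7.34 in WT UVA and 5.70 and 7.25 in WT sham arrays. Both genes were lower in KO than in WT arrays of number 2 without overlap and overlapped in number 1, with differences of -0.35 ± 0.14 (SE, adjusted p = 0.548) for Cdc45 and -0.40 ± 0.16 (SE, adjusted p = 0.548) for Gins1. Mcm10, a scaffold that helps fire origins, and the GINS subunits Gins2 and Gins3 differed by -0.28, -0.09 and -0.27.

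The 7 polymerase and primase genes had the lowest median of the roles, -0.35, with -0.48 in number 2 and -0.10 in number 1. Of these genes, 5 had an unadjusted p under 0.05 (Pole, Pold1, Prim1, Pola1 and Prim2), all lower in KO, against 3.95% of all genes lower in KO. Pole, the catalytic subunit of polymerase epsilon, which copies the leading strand, had 6.75 and 8.98 in KO UVA, 6.85 and 9.02 in KO sham, 7.07 and 9.43 in WT UVA and 6.99 and 9.51 in WT sham arrays. Its KO arrays lay below the WT arrays within each number, by -0.47 in number 2 and -0.23 in number 1, and the difference was -0.35 ± 0.08 (SE, adjusted p = 0.41). A second, dimmer probe set of Pole went the other way, with a KO minus WT difference of 0.27.

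Pold1, the catalytic subunit of polymerase delta, which copies the lagging strand, had 7.93 and 8.09 in KO UVA, 7.88 and 8.48 in KO sham, 8.06 and 8.62 in WT UVA and 8.21 and 8.90 in WT sham arrays. It too was lower in KO within both numbers, with a difference of -0.35 ± 0.10 (SE, adjusted p = 0.477). Prim1, the catalytic subunit of primase, had the lowest average of all 41 genes, -0.51 ± 0.19 (SE, adjusted p = 0.545). This came from -0.82 in number 2 and -0.20 in number 1, where sham arrays gave 0.25 and UVA arrays -0.65. Prim2, the large primase subunit, had -0.19. Pola1, the catalytic subunit of polymerase alpha, had -0.37, its accessory subunit Pola2 -0.07, and Pole2, a polymerase epsilon subunit, -0.47, which came from -0.95 in number 2 and 0.01 in number 1.

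The 5 measured genes of the clamp, its loader and flap processing had a median of -0.14, with -0.37 in number 2 and -0.01 in number 1. Rfc5, a clamp loader subunit, had 7.75 and 8.85 in KO UVA, 7.86 and 8.90 in KO sham, 7.73 and 9.18 in WT UVA and 8.08 and 9.31 in WT sham arrays. Lig1, the ligase that joins Okazaki fragments, had 7.34 and 8.60 in KO UVA, 7.09 and 8.40 in KO sham, 7.27 and 8.95 in WT UVA and 7.19 and 8.94 in WT sham arrays. Both were lower in KO in number 2 without overlap and overlapped in number 1, and the differences were -0.23 ± 0.09 (SE, adjusted p = 0.546) for Rfc5, with an unadjusted p of 0.0304, and -0.23 ± 0.11 (SE, adjusted p = 0.577) for Lig1. Pcna, the sliding clamp and the brightest gene of the list, differed by -0.05, Rfc3, another loader subunit, by -0.14, and Fen1, the flap endonuclease, by -0.14. A second, dimmer probe set of Fen1 had a KO minus WT difference of 0.05.

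The 5 nucleotide synthesis genes had a median of -0.25, with -0.43 in number 2 and -0.12 in number 1. Of the 5, 3 had an unadjusted p under 0.05, all lower in KO, against 3.95% of all genes lower in KO. Tk1, the cytosolic thymidine kinase of S phase, had 7.31 and 8.93 in KO UVA, 7.37 and 9.26 in KO sham, 7.59 and 9.54 in WT UVA and 7.59 and 9.75 in WT sham arrays. KO arrays lay below WT arrays within each number, and the difference was -0.40 ± 0.10 (SE, adjusted p = 0.417), with an unadjusted p of 0.00472. Tyms, the thymidylate synthase, had 8.35 and 8.72 in KO UVA, 8.38 and 9.28 in KO sham, 8.56 and 9.30 in WT UVA and 8.52 and 9.82 in WT sham arrays. Tyms was also lower in KO within both numbers, with a difference of -0.36 ± 0.14 (SE, adjusted p = 0.548). The ribonucleotide reductase subunits Rrm2 and Rrm1 differed by -0.25 and -0.14, and Dut, the dUTPase that keeps uracil out of DNA, by -0.13.

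Among the 4 measured G1/S regulators the median was -0.10, with -0.16 in number 2 and 0.01 in number 1, and no unadjusted p was under 0.05. E2f2, an activator of the E2F family, had 6.83 and 6.92 in KO UVA, 6.39 and 6.93 in KO sham, 6.64 and 7.37 in WT UVA and 6.67 and 7.19 in WT sham arrays. E2f1, another activator, had 9.69 and 10.18 in KO UVA, 9.86 and 10.11 in KO sham, 9.63 and 10.19 in WT UVA and 9.55 and 10.07 in WT sham arrays. E2f2 was lower in the KO arrays of number 2 and E2f1 higher in those of number 1, while the arrays of the other number overlapped, with differences of -0.20 ± 0.11 (SE, adjusted p = 0.629) for E2f2 and 0.10 ± 0.07 (SE, adjusted p = 0.721) for E2f1. E2f8, an E2F repressor, and Ccne1, a cyclin E that drives entry into S phase, differed by -0.10 and -0.09.

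The 4 genes that copy chromatin and methylation marks had a median of -0.26, with -0.60 in number 2 and nearly 0 in number 1. Dnmt1, the maintenance DNA methyltransferase, had 10.01 and 10.37 in KO UVA, 10.04 and 10.42 in KO sham, 10.06 and 10.84 in WT UVA and 10.13 and 10.93 in WT sham arrays. Uhrf1, which brings Dnmt1 to hemimethylated sites, had 7.94 and 8.52 in KO UVA, 7.86 and 8.83 in KO sham, 8.02 and 9.13 in WT UVA and 8.03 and 9.63 in WT sham arrays. Each was lower in KO than in WT arrays within both numbers, with differences of -0.28 ± 0.10 (SE, adjusted p = 0.532) for Dnmt1 and -0.42 ± 0.15 (SE, adjusted p = 0.545) for Uhrf1. Ezh2, the histone H3K27 methyltransferase, differed by -0.15, and Hells, a chromatin remodeler needed for DNA methylation, by -0.24, of which -0.79 came from number 2 and 0.31 from number 1.

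The genotype comparison was also made within each treatment. After UVA 37 of 41 genes had a KO minus WT difference below 0, against 55% of all genes. Their median was -0.16, against -0.02 over all genes. After sham 39 of 41 lay below 0, against 50.3% of all genes, with a median of -0.28 against -6e-04. None was called in either (all genes 0% after UVA and 0% after sham), with smallest adjusted p of 0.957 after UVA and 0.856 after sham. At an unadjusted p under 0.05 there were 3 genes after UVA and 5 after sham, all lower in KO, against 2.11% of all genes lower in KO after UVA and 2.38% after sham. After UVA the median was -0.35 in number 2 and -0.01 in number 1, and after sham it was -0.51 in number 2 and -0.01 in number 1. Without the KO UVA array of number 2 the median after UVA was -0.02, without the WT UVA array of number 2 it was -0.06, and without the number 1 arrays, KO UVA or WT UVA, it was -0.34 or -0.29. After sham it was -0.12 without the KO sham array of number 2, -0.05 without the WT sham array of number 2, and -0.49 without the WT sham array of number 1.

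The largest difference in the replication genes lay between the duplicates, which is given here as a description with no test. All 41 genes were higher in number 2 than in number 1 on average, with a median difference of 0.96, a 1.95-fold level, against 0.01 over all genes. In 37 of 41 genes every array of number 2 lay above every array of number 1, which 3688 of all genes (16.6%) did, and the 4 exceptions were Gins3, Pold1, Dut and E2f8. Rrm2 stood 5.32-fold higher in number 2, Pole 5.00-fold, Mcm5 4.66-fold, Prim1 3.94-fold and Tk1 3.75-fold. The smallest differences were those of Dut (1.20-fold), Cdt1 (1.23-fold) and Ccne1 (1.24-fold). The large steps of Pole and Rrm2 rest on the brighter of their probe sets. The dimmer one of Pole lay at 5.75 to 6.34 in number 1 and 5.88 to 6.29 in number 2. That of Rrm2 lay at 3.70 to 3.81 in number 1 and 3.81 to 4.25 in number 2. By role, the medians ran from 2.91-fold for nucleotide synthesis and 2.78-fold for polymerases and primase to 1.60-fold for licensing and 1.35-fold for G1/S regulators.

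The step between duplicates was larger in WT cultures for 39 of the 41 genes, against 11948 of all 22180 genes. Its median was 0.74 in KO cultures and 1.16 in WT cultures, against 0.001 and 0.0087 over all genes. This restates that KO minus WT was lower in number 2 than in number 1 for those 39 genes. On the mean of the list over the 8 arrays, WT arrays of number 2 were the highest, KO arrays of number 2 followed, and the 4 arrays of number 1 were low and close together. Melanocyte markers stood 1.97-fold higher in number 2 and fibroblast markers at 0.333 of their number 1 level, and their part in the step was not tested.

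**Figure D2:**
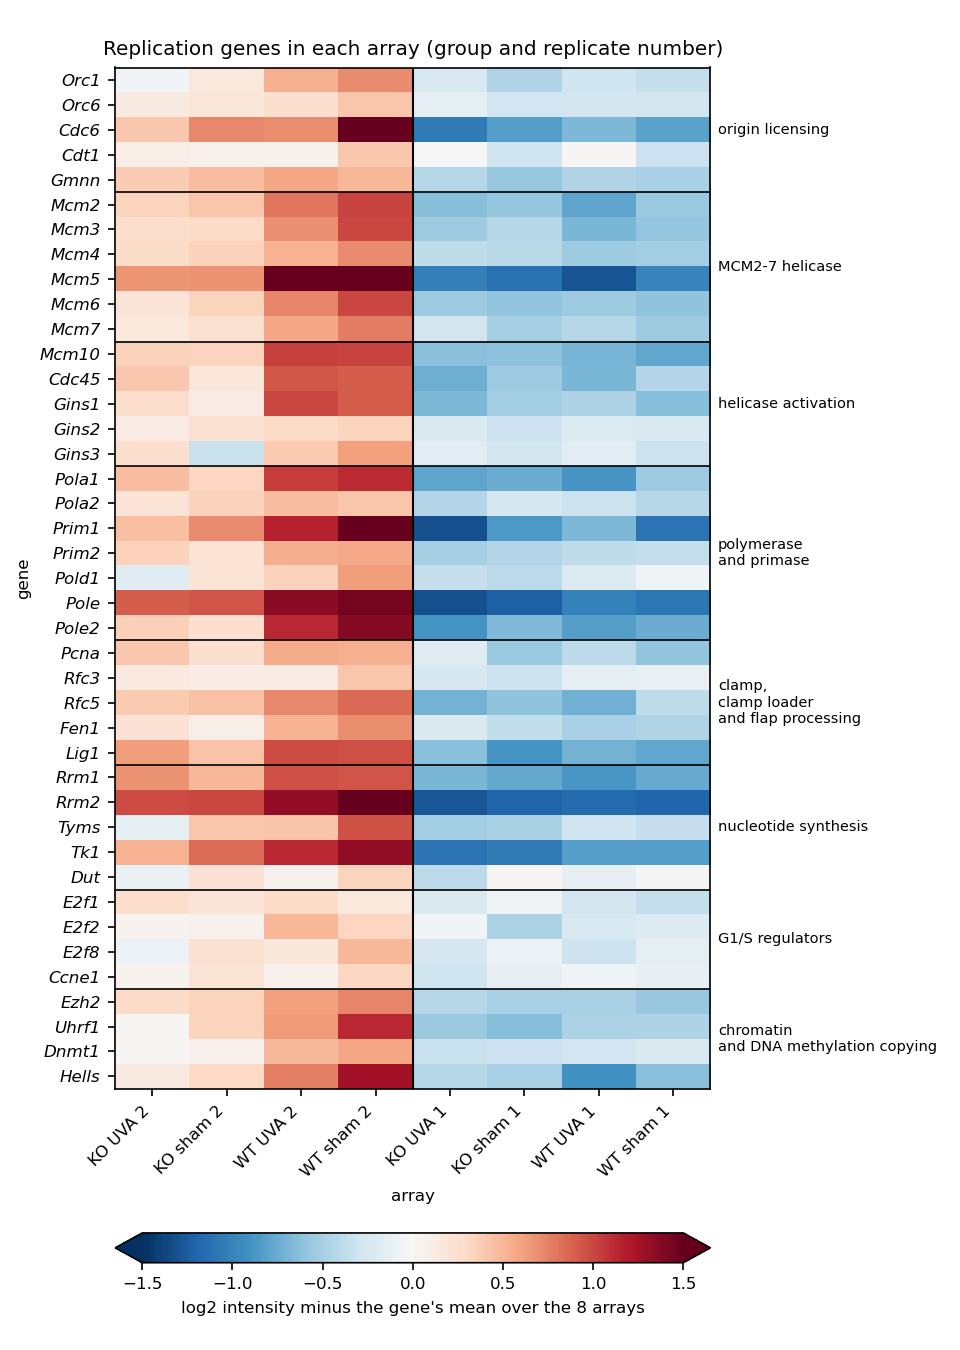
Log2 intensity of each measured replication gene (rows, by role) in each of the 8 arrays (columns), minus the gene's own mean over the arrays; the end colours also stand for values past the scale. The 4 arrays of number 2 on the left are above the mean for nearly all genes, most of all in WT, and the 4 arrays of number 1 on the right are mostly below it.

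The second question was what UVA-1 does to these genes 6 h later. Averaged over genotypes, 28 of 41 genes had a UVA minus sham difference below 0, against 48.9% of all genes. The median was only -0.06, against 0.0023 over all genes, and 0 of 41 were called (all genes 0.0135%). The median was -0.08 in number 2 and -0.01 in number 1. Leaving out 1 array at a time moved it between -0.13 and 0.04, with a median above 0 without the KO UVA array of number 2 (0.0056), the KO sham array of number 1 (0.0069) or the WT sham array of number 2 (0.0419). An unadjusted p under 0.05 was found for Dut and E2f8 alone, 2 of 41, against 6.54% of all genes.

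Dut had 8.47 and 8.76 in KO UVA, 8.87 and 9.08 in KO sham, 8.73 and 8.93 in WT UVA and 8.84 and 9.19 in WT sham arrays. In each of the 4 cultures the UVA array was the lower one, and the difference was -0.27 ± 0.07 (SE, adjusted p = 0.671). E2f8 had 9.32 and 9.48 in KO UVA, 9.48 and 9.80 in KO sham, 9.26 and 9.74 in WT UVA and 9.42 and 10.06 in WT sham arrays. Its UVA arrays were also lower in each culture, and the difference was -0.24 ± 0.09 (SE, adjusted p = 0.718). With each culture as its own block the adjusted p was 0.113 for Dut and 0.135 for E2f8, and again no gene of the list was called, against 97 of all genes (0.437%).

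Pcna, which also acts in repair of DNA damage and is a known p53 target, had 11.61 and 12.20 in KO UVA, 11.25 and 12.03 in KO sham, 11.40 and 12.35 in WT UVA and 11.20 and 12.33 in WT sham arrays. Its UVA arrays were the higher ones in all 4 cultures, the highest average UVA difference of the list, 0.19 ± 0.09 (SE, adjusted p = 0.768). Lig1 was likewise higher after UVA in all 4 cultures, with a difference of 0.13 ± 0.11 (SE, adjusted p = 0.883). Mcm3, Rfc5 and Dnmt1 were instead lower after UVA in all 4 cultures, with differences of -0.14, -0.15 and -0.06. How many of all genes moved one way in all 4 cultures was not counted. Cdkn1a (p21), the p53 target that inhibits cyclin-dependent kinases, is not in the list and had a UVA minus sham difference of 0.27 (adjusted p = 0.600).

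Cdc6 had the lowest average UVA difference, -0.31 ± 0.16 (SE, adjusted p = 0.827), and from its array values above it came mostly from the WT culture of number 2, where UVA gave -0.84. Mcm2, the ring subunit with the smallest UVA p-value, had 8.86 and 9.83 in KO UVA, 8.91 and 9.92 in KO sham, 8.71 and 10.30 in WT UVA and 8.94 and 10.51 in WT sham arrays. It was lower after UVA in all 4 cultures, with a difference of -0.14 ± 0.13 (SE, adjusted p = 0.899). Gins3 had 8.32 and 8.74 in KO UVA, 8.21 and 8.15 in KO sham, 8.33 and 8.89 in WT UVA and 8.17 and 9.10 in WT sham arrays. One array, KO sham of number 2, was low in Gins3, and without it the UVA difference of 0.16 ± 0.15 (SE, adjusted p = 0.901) turned to -0.02. Pold1 and Uhrf1, whose arrays are given above, differed by -0.19 ± 0.10 (SE, adjusted p = 0.829) and -0.18 ± 0.15 (SE, adjusted p = 0.893).

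By role, UVA minus sham medians were -0.01 for licensing, -0.07 for the MCM ring, 0.02 for helicase activation, -0.08 for polymerases and primase, 0.02 for the clamp group, -0.15 for nucleotide synthesis, -0.05 for G1/S regulators and -0.12 for chromatin copying. These are small beside the differences between duplicates, and no role held a called gene.

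In KO cultures 23 of 41 genes lay below 0 after UVA (all genes 51%), with a median of -0.02 (all genes -0.0016). There 0 were called (all genes 0.00902%), and 1 had an unadjusted p under 0.05 (all genes 4.02%). In WT cultures 33 of 41 lay below 0 (all genes 46.5%). The median was -0.08 (all genes 0.0091), made of -0.17 in number 2 and 0.01 in number 1. There 0 were called (all genes 0.00451%), and 0 had an unadjusted p under 0.05 (all genes 3.94%). The KO median was above 0 without the KO UVA array of number 2 (0.14) or the KO sham array of number 1 (0.09), and the WT median without the WT UVA array of number 1 (0.02) or the WT sham array of number 2 (0.10).

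**Figure D3:**
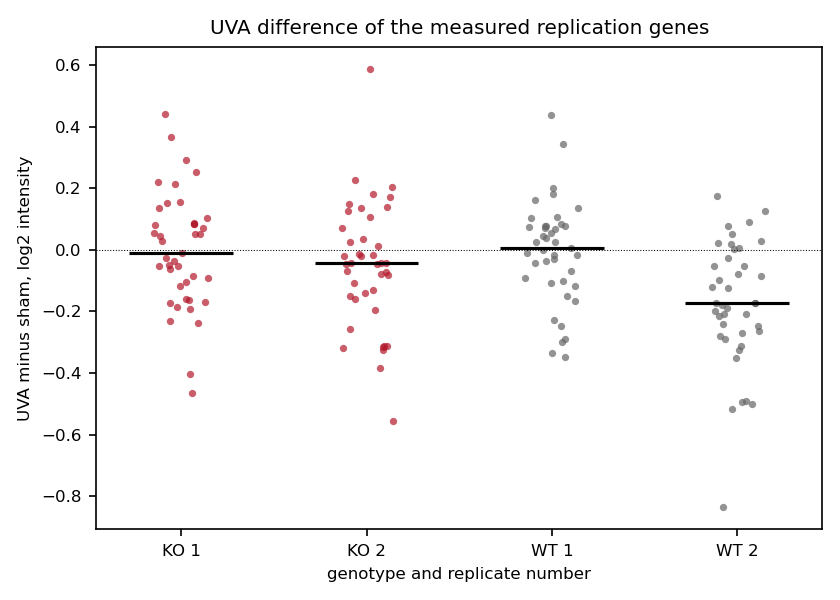
UVA minus sham difference in log2 intensity (y axis) of the 41 measured replication genes (points) in each culture (x axis, KO cultures in red, WT cultures in grey, by replicate number), with the median as a bar. The medians of KO 1, KO 2 and WT 1 lie near 0 and that of WT 2 at -0.17.

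Whether UVA acted differently in the 2 genotypes was tested as the interaction, the UVA minus sham difference in KO minus that in WT. It was above 0 for 30 of 41 genes, against 10472 of all 22180 genes. The median was 0.07, against -0.0087 over all genes. None of the 41 was called (all genes 0%) or had an unadjusted p under 0.05 (all genes 2.06%), and every member had an adjusted p of 1. Dut had an interaction of -0.17 ± 0.13 (SE, adjusted p = 1). Pola2, the accessory subunit of polymerase alpha, had 8.78 and 9.43 in KO UVA, 8.98 and 9.57 in KO sham, 8.90 and 9.69 in WT UVA and 8.80 and 9.63 in WT sham arrays. Both KO cultures were lower after UVA and both WT cultures higher, with an interaction of -0.24 ± 0.14 (SE, adjusted p = 1). Rfc3 had 6.98 and 7.36 in KO UVA, 6.91 and 7.33 in KO sham, 7.07 and 7.34 in WT UVA and 7.11 and 7.63 in WT sham arrays. It went the other way, higher after UVA in both KO cultures and lower in both WT cultures, with an interaction of 0.21 ± 0.15 (SE, adjusted p = 1). The 4 clamp, loader and flap genes other than Rfc3, the 6 ring genes and the 4 chromatin genes also had interactions above 0, none past the threshold. The median interaction was below 0 without the KO UVA array of number 1 (-0.10), the KO sham array of number 2 (-0.04), the WT UVA array of number 1 (-0.03) or the WT sham array of number 2 (-0.13).

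Genes of the same pathways outside the 41 were read from wider lists. Of 45 other replication genes 39 had a KO minus WT difference below 0, with a median of -0.15, and 0 were called. An unadjusted p under 0.05 was found for 11, all lower in KO, against 3.95% of all genes lower in KO. Those with the smallest p-values were Chaf1a, a subunit of the histone chaperone that deposits histones behind the fork (-0.34, adjusted p = 0.477), Cdk2, the kinase of S phase (-0.38, adjusted p = 0.482), and Asf1b, a histone chaperone (-0.36, adjusted p = 0.496). Of 23 other nucleotide synthesis genes 15 lay below 0, with a median of -0.05. At an unadjusted p under 0.05 there were 1 lower and 1 higher in KO, against 876 lower and 1094 higher of all 22180 genes. None of the 23 was called. The smallest p-values there were those of Dhodh, the dihydroorotate dehydrogenase of pyrimidine synthesis (-0.22, adjusted p = 0.548), Prps1, which makes the ribose donor of nucleotides (0.22, adjusted p = 0.557), and Ppat, the first enzyme of purine synthesis (-0.17, adjusted p = 0.577).

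All 24 mitosis genes had a KO minus WT difference below 0, with a median of -0.37, -0.62 in number 2 and -0.12 in number 1. Of these, 16 had an unadjusted p under 0.05, against 3.95% of all genes lower in KO, but 0 were called. Cdc20, the activator of the anaphase-promoting complex (-0.51, adjusted p = 0.307), Ccna2, cyclin A2 (-0.47, adjusted p = 0.324), and Cenpa, the centromeric histone (-0.40, adjusted p = 0.41), had the smallest p-values, and Mki67, the proliferation antigen, had -0.42, adjusted p = 0.505. Mitosis genes stood 5.42-fold higher in number 2 than in number 1, other replication genes 1.47-fold and other nucleotide synthesis genes 0.899-fold. Among 7 cyclin-dependent kinase inhibitors, which hold back the entry into S phase, the median KO minus WT difference was 0.06, with 4 above 0 and 3 below 0. Those with the smallest p-values were Cdkn2b (p15; 0.27, adjusted p = 0.505), Cdkn2a (p16 and p19Arf; 0.36, adjusted p = 0.517) and Cdkn1c (p57; 0.21, adjusted p = 0.618). Of the 7, 2 had an unadjusted p under 0.05, both higher in KO, against 1094 of 22180 genes higher in KO, and none was called. The 3 below 0 were Cdkn1b (-0.18, adjusted p = 0.633), Cdkn2c (-0.16, adjusted p = 0.745) and Cdkn2d (-0.16, adjusted p = 0.731), named after their values were seen.

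**Figure D4:**
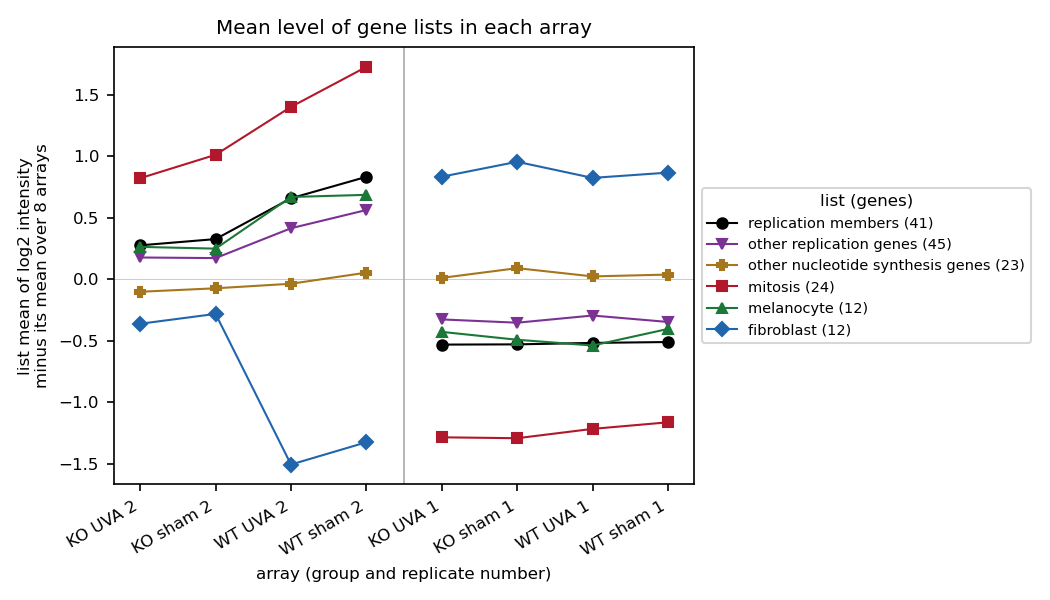
Mean log2 intensity of each gene list in each of the 8 arrays (x axis), minus the list's mean over the arrays (y axis), with the number of genes per list in the legend. Replication members, other replication genes, mitosis genes and melanocyte markers were highest in WT arrays of number 2, fibroblast markers were lowest there, and the 4 arrays of number 1 lie close together for each list.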

How the data were processed

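Total RNA for 8 arrays was labelled and hybridised to Affymetrix whole-transcript arrays, per the labels' protocols. The deposited values are intensity values per probe set, made with RMA in Affymetrix Expression Console 1.3.1.187, per the submitters' processing notes, and they were linear and whole, between 7 and 22585, so log2 was taken here. The genome build behind the annotation is not given in the sources used here. Of 41345 probe sets 23521 carry one symbol, 1814 several, and 16010 are unnamed here, and array medians ran from 110 to 115. The number of arrays limits the precision, and p-values measure only the spread between these samples.

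Comparisons were fitted over all 22180 genes in limma 3.58.1 (R 4.3.3, lmFit and eBayes with trend), with a mean per group and the replicate number as a block (3 residual degrees of freedom), two-sided, with Benjamini-Hochberg adjustment at 0.05. The block follows the stated pairing, and deviations of same-numbered arrays from their group means correlated at 0.799 to 0.916. Sham and UVA arrays of one genotype and number entered as separate arrays. Alternatives left out the block, the trend, genes below a mean log2 of 6 or each array in turn, added 50 to intensities, averaged probe sets, centred arrays, took 1 value per culture or blocked by culture.

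The members and lists were chosen with earlier results of these data known. Values in every array are given for the 2 members of each role with the smallest unadjusted p for genotype, the 1 with the smallest for UVA and the 3 with the smallest interaction p and for Atg7. Of other lists the 3 genes with the smallest genotype p, plus Cdkn1a and Mki67, are given by their differences. The remaining members are given by their differences, and a gene named at the end of a range was named after its values were seen.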

Additional observations from a re-analysis of the deposited data

Results flagged for a closer look

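In 3 of the 41 replication genes the UVA minus sham difference had one sign in both KO cultures and the opposite sign in both WT cultures, and this difference between the genotypes did not pass the interaction test in limma (adjusted p = 1 for each). For Rfc3, the clamp loader subunit, UVA in KO minus UVA in WT was 0.2145, from 0.07 and 0.03 in KO cultures and -0.04 and -0.29 in WT cultures (number 1 and number 2). For Fen1, the flap endonuclease, it was 0.2501, from 0.16 and 0.13 in KO cultures and -0.04 and -0.18 in WT cultures. For Pola2, the polymerase alpha subunit, it was -0.2402, from -0.19 and -0.13 in KO cultures and 0.10 and 0.05 in WT cultures. Such opposite signs occurred in 7.32% of the replication genes and in 7.45% of all genes.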

How the results depend on the processing

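No replication gene passed the adjusted threshold in any of the 7 comparisons under any alternative run. Without the replicate block the smallest adjusted p of the averaged genotype comparison was 1, against 0.410 in the paired fit, and with 1 value per culture and the replicate block it was 0.996. The count of genes below 0 in KO minus WT was 40 over both numbers, 36 to 40 when 1 array was left out, and 24 within number 1 alone, an alternative chosen after seeing the data. Leave-one-out ranges of the median UVA minus sham difference were -0.1345 to 0.0419 averaged over genotypes, -0.1756 to 0.1373 in KO and -0.2557 to 0.0981 in WT, of KO minus WT they were -0.3420 to -0.0192 after UVA and -0.4896 to -0.0476 after sham, and of the interaction -0.1285 to 0.2556. The UVA difference of Gins3 ran from -0.0156 to 0.3344 and was below 0 only without the KO sham array of number 2. Of the other single-gene values, 420 kept their direction and side of the threshold. No detection call was used to judge signal over background, and 2 arrays per group limit every test.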

Other observations

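Marker lists of other skin cell types were read in the same comparison as values beside the replication genes. The median KO minus WT difference was 0.05 for 9 keratinocyte markers, -0.02 for 8 myeloid cell markers, 0.04 for 6 mast cell markers, 0.05 for 8 endothelial cell markers and 0.33 for 5 Schwann cell markers. The number 2 minus number 1 median was 0.10, 0.08, -0.04, -0.16 and 0.04 for these lists in the same order, and the 12 fibroblast markers stood at -1.59. Summed intensities of the myeloid cell markers were 2453 and 2677 in KO UVA and KO sham arrays of number 2, against 1318 and 1385 in WT UVA and WT sham arrays of number 2. In number 1 they were 1241 and 1238 in KO and 1205 and 1062 in WT arrays. Lyz2, a lysozyme of myeloid cells, had the largest KO minus WT difference of the list, 1.70 in number 2 and 0.47 in number 1. The other myeloid markers lay between -0.12 (Itgam) and 0.25 (Cd68) in number 2 and between -0.14 (Itgam) and 0.12 (Cd68) in number 1. The Schwann cell markers summed to 3539 and 3401 in KO and 2849 and 3036 in WT arrays of number 2, and to 2090 and 2314 in KO and 1214 and 1300 in WT arrays of number 1. The keratinocyte markers summed to 955 to 1280 in KO and 930 to 1167 in WT arrays, the endothelial cell markers to 1378 to 1946 in KO and 1305 to 1787 in WT arrays, and the mast cell markers to 151 to 163 in KO and 152 to 153 in WT arrays. The part of these cells in the replication values was not tested.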
